A study of Drosophila melanogaster with 42 samples.

Results

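The genes studied here are zld, fog, nullo, bnk and slam of Drosophila melanogaster, 5 genes of zygotic genome activation, cellularisation and gastrulation, out of 13842 protein-coding genes on the chromosome arms X, 2L, 2R, 3L and 3R. They were named for their roles and not by a rule on a measured value, but with earlier results of these data known. All 5 were found by symbol in RefSeq's Release 6 gene table. Embryos 11-12 h old (stage 13-15) were compared with embryos 3-4 h old (stage 5-8) by ChIP-seq, which sequences the DNA bound to an immunoprecipitated protein or histone mark, in 26 ChIP samples and 16 inputs. Whole embryos were fixed with formaldehyde, and the labels name no strain, sex, allele or treatment for either age. Trimethylation of histone H3 at lysine 36 (H3K36me3) and acetylation of histone H4 at lysine 16 (H4K16ac) were measured on sonicated chromatin in 2 samples per stage. H4K16ac, the acetyltransferase MOF and the dosage compensation protein MSL2 were also measured, in 3 samples per stage each, on chromatin digested with micrococcal nuclease (MNase). The MNase dose was 2.9 units per g of embryos at 11-12 h and 0.9 at 3-4 h, set per the labels to reach a like degree of digestion, so dose and age cannot be told apart in those lists.

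The values used are 12 lists of regions deposited by the authors, 1 for each assay and stage, with MSL2 split into mononucleosomal and subnucleosomal fragments. Each list stands for all replicates of its group and gives positions on the dm6 build with no score, height or read count. The values therefore have no replicate error and no p value, and the depth behind them is unknown. Where no region lies over a gene, the mark may still be there below what the authors' calling picked up. A gene is called touched where it shares at least 1 base with a region, and its coverage is the percent of the gene body under regions. The gene table has no strand and no exons, so places inside a gene are distances from its low-coordinate end, and "below" and "above" a gene mean toward lower and higher coordinates. At 11-12 h the lists held 4075 regions of H3K36me3, 2335 of sonicated H4K16ac, 1863 of MNase H4K16ac, 613 of MOF, 319 of mononucleosomal MSL2 and 295 of subnucleosomal MSL2. At 3-4 h they held 3771 regions of H3K36me3, 2885 of sonicated H4K16ac, 1520 of MNase H4K16ac, 517 of MOF, 247 of mononucleosomal MSL2 and 131 of subnucleosomal MSL2.

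In the first hours of development the fly embryo runs on RNA and protein laid down by the mother, while its nuclei divide in a shared cytoplasm. Its own genome is then switched on, membranes grow down between the nuclei to make cells, and parts of the sheet of cells fold inward at gastrulation. Zelda, the product of zld, is a zinc finger protein that opens and activates early zygotic genes. Nullo, Bottleneck (bnk) and Slam act on the actin, myosin and membrane of the ingrowing furrows and are made briefly at that time, and Fog is a secreted ligand that drives apical constriction of cells that fold inward. H3K36me3 is laid down in the bodies of transcribed genes. H4K16ac is deposited by MOF, and in males the MSL complex, of which MSL2 is a subunit, spreads it along the X chromosome.

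Listed regions lay over zld and fog, and no region of any of the 12 lists lay over nullo, bnk or slam. H3K36me3 touched 0 of the 5 genes at 11-12 h, against 2 of 5 (zld and fog) at 3-4 h. Sonicated H4K16ac touched 1 of 5 (zld) at 11-12 h and the same gene at 3-4 h. MNase H4K16ac touched 2 of 5 (zld and fog) at 11-12 h, against 0 of 5 at 3-4 h. MOF and mononucleosomal MSL2 touched 0 of 5 at both stages, and subnucleosomal MSL2 touched 1 of 5 (fog) at 11-12 h, against 0 of 5 at 3-4 h. The pair of X-linked genes with H3K36me3 in the younger embryos thus had MNase H4K16ac and no H3K36me3 in the lists of the older ones.

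**Figure D1:**
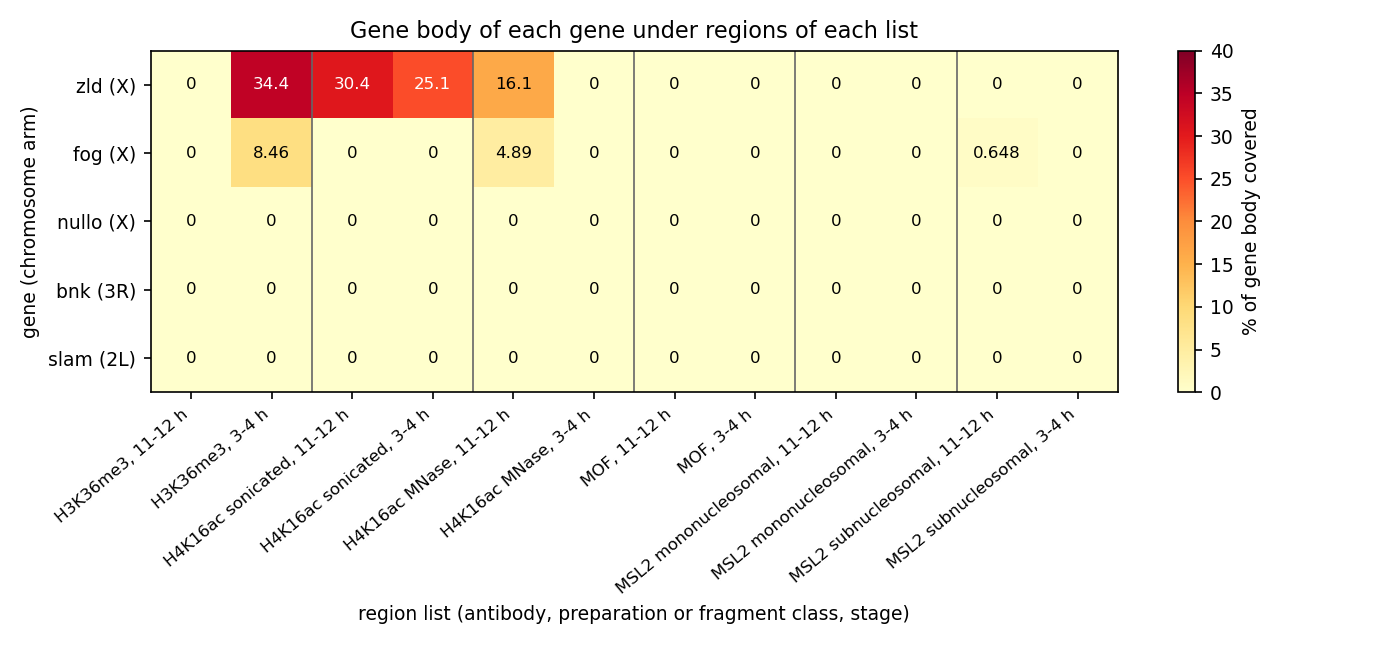
Percent of the gene body (colour and printed number) of each of the 5 genes (rows, with the chromosome arm) under the regions of each of the 12 lists (columns, 11-12 h left of 3-4 h in each pair). The values above 0 belong to zld and fog, with the highest, 34.4%, for H3K36me3 over zld at 3-4 h.

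These counts are read against the share of all protein-coding genes touched by the same list. Of the 2197 on the X, the arm of zld, fog and nullo, H3K36me3 touched 55.5% at 11-12 h and 53.8% at 3-4 h. Sonicated H4K16ac touched 68.1% of X genes at 11-12 h and 59.2% at 3-4 h, and MNase H4K16ac touched 74.5% at 11-12 h and 59.1% at 3-4 h. MOF touched 54.7% at 11-12 h and 48.5% at 3-4 h, mononucleosomal MSL2 20.6% at 11-12 h and 17.8% at 3-4 h, and subnucleosomal MSL2 6.78% at 11-12 h and 5.05% at 3-4 h. For 3 X-linked genes, 2 of 3 with MNase H4K16ac at 11-12 h or with H3K36me3 at 3-4 h is a share near these backgrounds. A region listed at a single stage was rarer. H3K36me3 at 3-4 h alone was found at 2.09% of X genes (46 of 2197), zld and fog among them. MNase H4K16ac at 11-12 h alone was found at 15.4% of X genes, and subnucleosomal MSL2 at 11-12 h alone at 3.05%. The genes zld and fog are longer than most X genes, and these shares were not counted among X genes of like length. On 2L and 3R, the arms of slam and bnk with 6055 genes, H3K36me3 touched 51.0% at 11-12 h and 50.4% at 3-4 h. There, sonicated H4K16ac touched 21.8% at 11-12 h and 32.9% at 3-4 h, and MNase H4K16ac 14.2% at 11-12 h and 9.23% at 3-4 h.

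The gene zld spans 17.1 kb (X 19766465 to 19783548 on dm6) and overlaps no other gene of the table, and 10.6% of X genes are longer. H3K36me3 covered 0% of it at 11-12 h and 34.4% at 3-4 h, where 1 region of 5.88 kb (X 19776576 to 19782454) began 10.1 kb and ended 15989 bp inside the gene. Sonicated H4K16ac covered 30.4% at 11-12 h and 25.1% at 3-4 h. MNase H4K16ac covered 16.1% at 11-12 h and 0% at 3-4 h. These levels lay below the medians of touched X genes, which were 85.7% for H3K36me3 at 3-4 h, and for sonicated H4K16ac 100% at 11-12 h and 93.8% at 3-4 h. Of the X genes touched by H3K36me3 at 3-4 h, 19.9% had a coverage no higher than that of zld. The same share was 12.5% for sonicated H4K16ac at 11-12 h, 14.2% at 3-4 h, and 4.03% for MNase H4K16ac at 11-12 h.

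Sonicated H4K16ac was listed over zld at both stages, in different places. At 11-12 h it formed 1 region of 5.19 kb (X 19777014 to 19782200), from 10.5 to 15.7 kb inside the gene. At 3-4 h it formed 3 regions of 1251, 1534 and 1505 bp (X 19770927 to 19772177, X 19772360 to 19773893 and X 19774065 to 19775569), between 4.46 and 9.10 kb inside the gene, with gaps of 182 and 171 bp. The regions of the 2 stages shared 0 bp and were 1444 bp apart. Of 1289 X genes touched by sonicated H4K16ac at both stages, 14 (1.09%) shared no base between the stages, zld among them.

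The sonicated H4K16ac of older embryos, and part of their MNase H4K16ac, lay on the stretch that H3K36me3 marked in younger ones. The sonicated H4K16ac region of 11-12 h fell wholly within the H3K36me3 region of 3-4 h and took up 88.2% of it (5187 of 5879 bp). At 3-4 h itself, H3K36me3 and sonicated H4K16ac shared 0 bp over zld and were 1006 bp apart. On MNase chromatin, H4K16ac at 11-12 h lay in 2 regions. The wider, of 1.76 kb (X 19776209 to 19777966), shared 1391 bp with the H3K36me3 region of 3-4 h, which is 50.4% of all MNase H4K16ac bases over the gene. The narrower, of 1.00 kb (X 19767958 to 19768957), lay 1.49 to 2.49 kb inside the gene, away from all other regions over it. The 2 preparations of H4K16ac overlapped in part at 11-12 h, with 953 bp shared, which is 34.6% of the MNase bases and 18.4% of the sonicated bases over the gene.

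**Figure D2:**
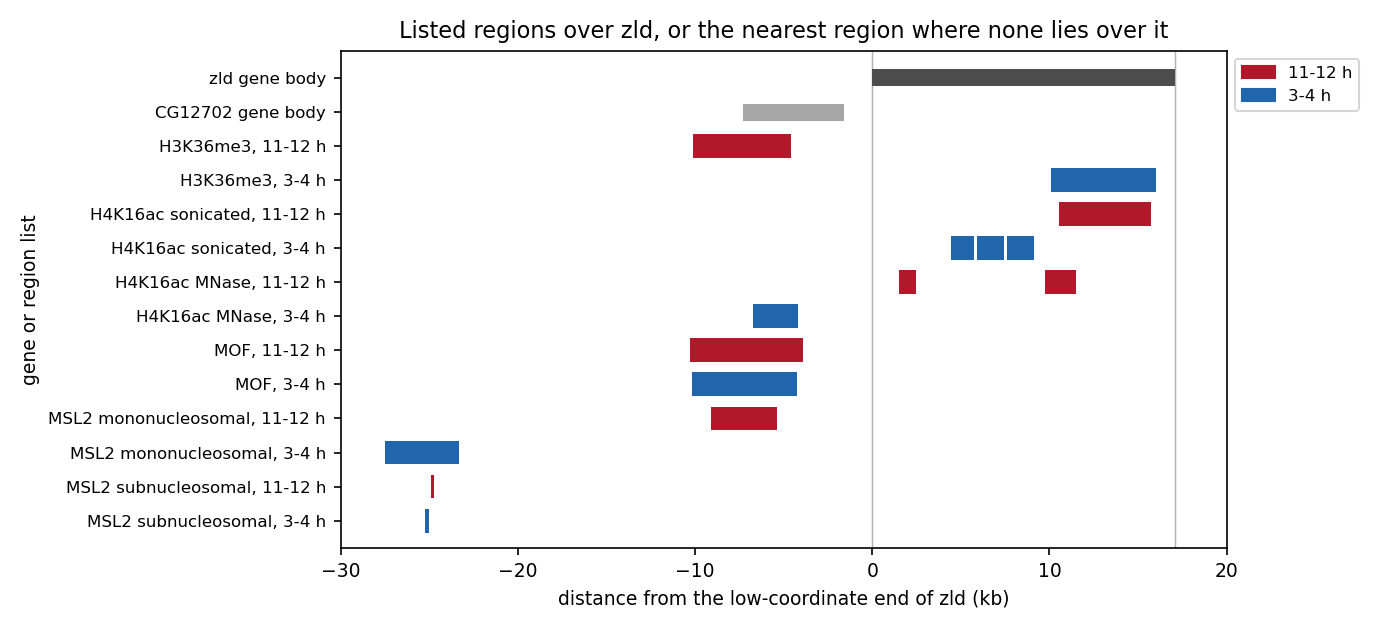
Map of zld with its neighbour CG12702 (grey bars) and, for each list (rows), the regions over zld or, where none lies over it, the nearest region; the x axis is the distance in kb from the low-coordinate end of zld, with 11-12 h in red and 3-4 h in blue. The late sonicated H4K16ac region lies within the span of the early H3K36me3 region, and the MOF regions of both stages lie outside zld, partly over CG12702.

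MOF and MSL2 were listed near zld and not over it. The nearest MOF region was 3.9 kb below the gene at 11-12 h (X 19756158 to 19762558, 6.40 kb wide) and 4.3 kb below at 3-4 h (X 19756291 to 19762211, 5.92 kb wide). It lay partly over CG12702, the gene 1.59 kb below zld, which MOF covered to 59.4% at 11-12 h and 53.3% at 3-4 h. The nearest mononucleosomal MSL2 region was 5.4 kb below zld at 11-12 h (X 19757371 to 19761093), against 23.3 kb below at 3-4 h (X 19738982 to 19743160). In the widest 50% of each list, these distances were 73014 bp at 11-12 h and 72564 bp at 3-4 h, so the difference between the stages rests on narrower regions. Mononucleosomal MSL2 covered 33.7% of CG12702 at 11-12 h and 0% at 3-4 h. Subnucleosomal MSL2 regions lay 24.7 kb from zld at 11-12 h and 25.0 kb at 3-4 h. H3K36me3 was listed over CG12702 at both stages, with 47.2% covered at 11-12 h and 53.3% at 3-4 h, unlike over zld. The gene on the other side, SkpD, is 29.2 kb away and was at 0% in every list.

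Within 100 kb of zld on either side, most genes were touched at both stages. Of 31 other protein-coding genes there, H3K36me3 touched 27 at 11-12 h and 26 at 3-4 h, sonicated H4K16ac 28 at 11-12 h and 26 at 3-4 h, and MOF 28 at 11-12 h and 27 at 3-4 h. Sonicated H4K16ac filled 54.5% of that window at 11-12 h and 38.3% at 3-4 h, while it filled 22.7% of the X at 11-12 h and 15.7% at 3-4 h. MNase H4K16ac filled 59.2% of the window at 11-12 h and 37.0% at 3-4 h, while it filled 32.7% of the X at 11-12 h and 16.7% at 3-4 h. MOF filled 35.2% of the window at each stage, while it filled 15.7% of the X at 11-12 h and 14.2% at 3-4 h. In these 3 assays the stretch around zld was thus more densely covered than the X as a whole.

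The gene fog spans 30.9 kb (X 22824317 to 22855194), and 5.55% of X genes are longer. H3K36me3 covered 0% of it at 11-12 h and 8.46% at 3-4 h, in a region of 2.61 kb (X 22826303 to 22828915) from 1.99 to 4.60 kb inside the gene. MNase H4K16ac covered 4.89% at 11-12 h, in a region of 1.51 kb (X 22827064 to 22828574), and 0% at 3-4 h. That region lay wholly within the H3K36me3 region of 3-4 h and took up 57.8% of it (1511 of 2613 bp). Sonicated H4K16ac covered 0% at both stages, so the late H4K16ac over fog was listed in the MNase preparation and not in the sonicated one. Of the X genes touched by the same list, 6.68% had a coverage no higher than that of fog for H3K36me3 at 3-4 h, and 1.10% for MNase H4K16ac at 11-12 h.

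Subnucleosomal MSL2 was also listed over fog at 11-12 h, in a region of 200 bp (X 22824768 to 22824967) from 451 to 650 bp inside the gene, and not at 3-4 h. It covered 0.648% of the gene body at 11-12 h, against a median of 1.94% over the X genes touched by that list, whose regions all have this 1 width. It was 2096 bp from the late MNase H4K16ac region and 1335 bp from the place of the early H3K36me3. The nearest MOF region was 151.9 kb away at 11-12 h and 152.4 kb at 3-4 h. The nearest mononucleosomal MSL2 region was 153.6 kb away at 11-12 h and 153.7 kb at 3-4 h. All 3 regions over fog lie below the start of CG42346 (X 22832399 to 22885541), a gene that overlaps fog and was at 0% in every list, as were the neighbours CG12446 and CG34334.

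**Figure D3:**
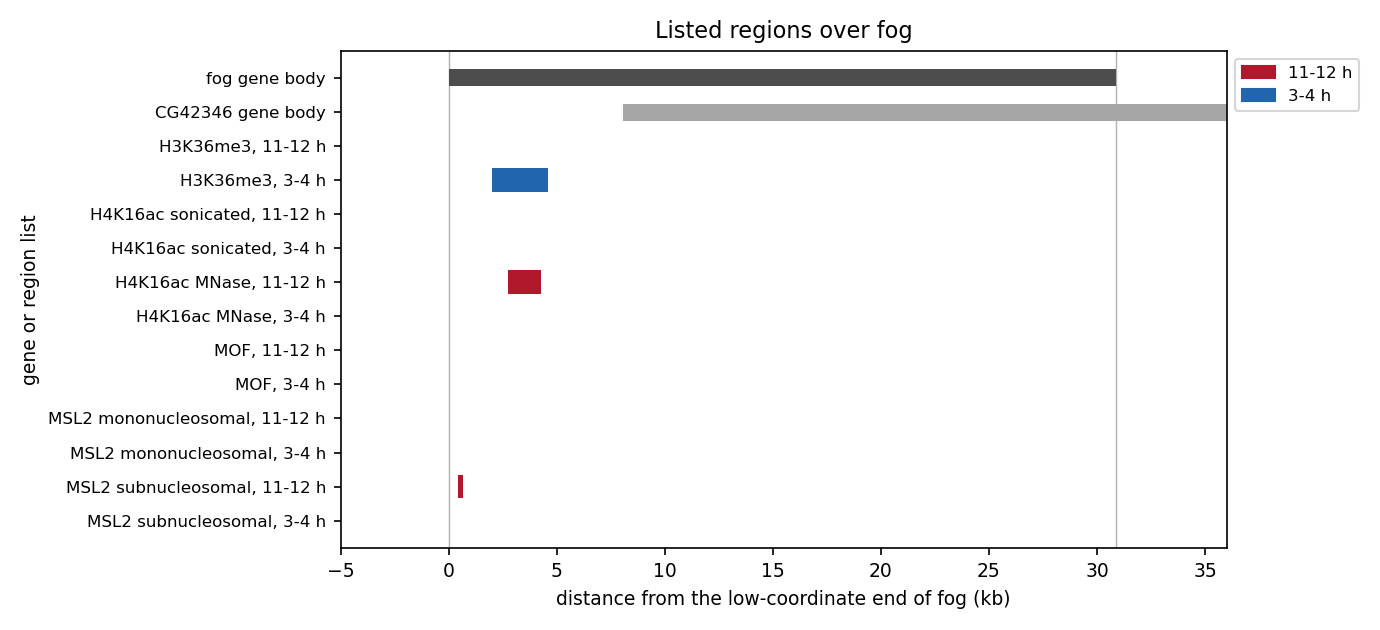
Map of fog and the overlapping gene CG42346 (grey bars) with the regions of each list (rows); the x axis is the distance in kb from the low-coordinate end of fog, with 11-12 h in red and 3-4 h in blue, and CG42346 runs on beyond the right edge. The 3 regions, H3K36me3 at 3-4 h and MNase H4K16ac and subnucleosomal MSL2 at 11-12 h, lie within 4.60 kb of that end, and the nearest regions of the other lists lie outside the plotted stretch.

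The surroundings of fog were empty where those of zld were full. Within 100 kb of fog on either side, 0 of the 4 other protein-coding genes were touched in any list, and the 3 regions over fog were the only ones listed there. The nearest sonicated H4K16ac region was 152.2 kb above fog at 11-12 h and 152.3 kb above at 3-4 h, and the nearest MNase H4K16ac region at 3-4 h was 152.4 kb above. The nearest H3K36me3 region at 11-12 h was 156.3 kb above, and 2.00% of X genes were as far or farther from this mark at that stage.

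Both genes belong to the 46 X genes with H3K36me3 listed at 3-4 h and not at 11-12 h. By the number of bases that H3K36me3 covered at 3-4 h, zld ranked 1 of 46 (5879 bp) and fog 5 of 46 (2613 bp). A count of bases favours long genes such as these. By percent of the gene body, several of the 46 stood higher, up to 100%, than zld (34.4%) and fog (8.46%). In 73.9% of the 46, those bases carried some sonicated H4K16ac at 11-12 h, as they did over zld and did not over fog. In 87.0% they carried some MNase H4K16ac at 11-12 h, as over both. In 34.8% (16 of 46) they carried H4K16ac of at least 1 preparation at 11-12 h and of neither at 3-4 h, as over both genes. Late H4K16ac on the early H3K36me3 bases was thus common among such X genes. It was also common on the X in general, where these lists touched 68.1% (sonicated) and 74.5% (MNase) of all genes at 11-12 h. Those shares count whole gene bodies, and X genes that kept H3K36me3 were not counted in the same way. H4K16ac listed on the early H3K36me3 bases at 11-12 h and not at 3-4 h was found in the smaller group of 16. That group also holds CG7884 and CG2865, ranks 3 and 4 of the 46.

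The coverage of each gene over the 12 lists was compared with that of all other genes of its arm by the mean absolute difference. Nearest to zld were CG7884 (4.27 percentage points), ph-p, a Polycomb group gene (4.38 points), and CG11409 (5.29 points), against 8.84 points for a gene at 0% in every list. CG7884 had H3K36me3 coverage of 0% at 11-12 h and 19.7% at 3-4 h, and sonicated H4K16ac coverage of 25.4% at 11-12 h and 0% at 3-4 h. All of its H3K36me3 bases of 3-4 h (100%) lay under sonicated H4K16ac at 11-12 h. In ph-p, H3K36me3 was listed at both stages, with 26.1% covered at 11-12 h and 36.4% at 3-4 h. Nearest to fog were vnd, a homeobox gene of the neural ectoderm (0.647 points), CG32683 (0.782 points) and Ste12DOR (0.824 points), against 1.17 points for a gene at 0% throughout. Of these, vnd had H3K36me3 coverage of 0% at 11-12 h and 6.24% at 3-4 h and no region of another list.

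The 3 genes with no region differ in size and surroundings. The gene nullo is 846 bp long (X 7049476 to 7050321) and lies inside the span of CG12541, which was at 0% in every list too. The nearest H3K36me3 region was 25.9 kb above nullo at 11-12 h and 25.5 kb above at 3-4 h, in both cases over Sxl, the master gene of sex determination (X 7074550 to 7098053). The nearest sonicated H4K16ac region was 29.8 kb above nullo at 11-12 h, also over Sxl, against 34.4 kb below nullo at 3-4 h. The nearest MNase H4K16ac region was 25.2 kb above at 11-12 h, 15.1 kb wide and over Sxl (X 7075527 to 7090608), against 34.5 kb below at 3-4 h. In the full lists, H4K16ac over Sxl was thus the closest to nullo in the older embryos, and regions on the other side were the closest in the younger ones. In the widest 50% of each list, the sonicated distances were 34411 bp at 11-12 h and 34374 bp at 3-4 h. The MNase distances there were 25206 bp at 11-12 h and 35959 bp at 3-4 h. For sonicated H4K16ac, the difference between the stages thus rests on a narrower region.

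MOF was 35.3 kb from nullo at 11-12 h and 36.2 kb at 3-4 h, and mononucleosomal MSL2 was 56.3 kb away at 11-12 h and 56.8 kb at 3-4 h. Subnucleosomal MSL2 was 79.9 kb away at 11-12 h and 237.2 kb at 3-4 h, and 21.2% of X genes at 11-12 h and 7.87% at 3-4 h were as far or farther from it. The median X gene was at 0 kb from H3K36me3 and from both kinds of H4K16ac at both stages, and 15.4% of X genes were as far from H3K36me3 as nullo or farther at 11-12 h. Within 100 kb of nullo, 15 of 22 other genes were touched by H3K36me3 at 11-12 h and 14 at 3-4 h, and 10 at 11-12 h and 8 at 3-4 h by MOF. The closest neighbours, CG14427 at 7.71 kb below and CG4607 at 19.1 kb above, were at 0% in every list.

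The gene bnk is 1028 bp long (3R 31193362 to 31194389) and lies inside the span of mesh, a gene of septate junctions, which was at 0% in every list, as were the neighbours Gycbeta100B and CG1544. The nearest H3K36me3 region was 9.7 kb above bnk at 11-12 h and 9.6 kb above at 3-4 h, and 24.7% of 3R genes at 11-12 h and 25.3% at 3-4 h were as far or farther. Sonicated H4K16ac was 23.5 kb above at 11-12 h and 17.9 kb above at 3-4 h. MNase H4K16ac was 58.5 kb above at 11-12 h and 17.8 kb above at 3-4 h, and here 27.2% of 3R genes at 11-12 h and 62.9% at 3-4 h were as far or farther. H4K16ac of both preparations was listed closer to bnk in the younger embryos, but in the widest 50% of each list the order turned for MNase H4K16ac, with 58510 bp at 11-12 h and 421477 bp at 3-4 h. Within 100 kb of bnk, 10 of 26 other genes were touched by H3K36me3 at each stage, and sonicated H4K16ac touched 4 at 11-12 h and 9 at 3-4 h.

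The gene slam is 4.90 kb long (2L 6372388 to 6377284), with 23.5% of 2L genes longer. The nearest H3K36me3 region was 24.7 kb below slam at both stages, and 22.5% of 2L genes at 11-12 h and 22.7% at 3-4 h were as far or farther. Sonicated H4K16ac was 77.5 kb above the gene at 11-12 h, against 33.1 kb below it at 3-4 h, a distance that was 77733 bp at 3-4 h in the widest 50% of the list. MNase H4K16ac was 79.0 kb above at 11-12 h and 98.8 kb above at 3-4 h. The neighbours Nepl4, 2198 bp below, and DIP-epsilon, 487 bp above, were at 0% in every list. Within 100 kb of slam, 13 of 27 other genes were touched by H3K36me3 at each stage, and sonicated H4K16ac touched 3 at 11-12 h and 6 at 3-4 h.

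**Figure D4:**
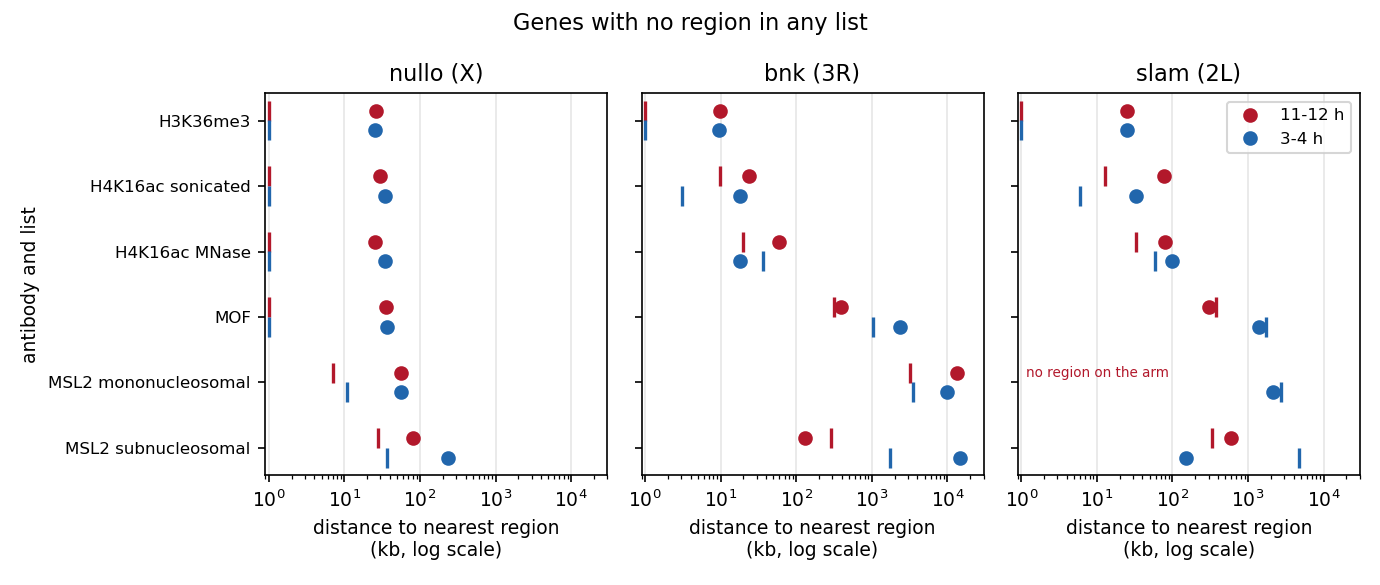
Distance in kb (log scale) from nullo, bnk and slam to the nearest region of each list, as dots (11-12 h in red, drawn above 3-4 h in blue); upright ticks show the median distance over all protein-coding genes of the same arm, with medians under 1 kb drawn at 1 kb. For H3K36me3 the 3 genes lay 9.6 to 25.9 kb from a region at either stage, and the arm medians were 0 to 0.122 kb.

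MOF and MSL2 regions were few on the arms of bnk and slam, which makes long distances common there. The MOF list held 37 regions on 3R at 11-12 h and 23 at 3-4 h, and the nearest to bnk was 393.4 kb away at 11-12 h and 2377.1 kb at 3-4 h. On 2L it held 19 regions at 11-12 h and 3 at 3-4 h, and the nearest to slam was 305.5 kb away at 11-12 h and 1398.0 kb at 3-4 h. Mononucleosomal MSL2 had 3 regions on 3R at each stage, and on 2L 0 at 11-12 h and 2 at 3-4 h. A gene with no region in any of the 12 lists was common, at 24.5% of X genes, 46.9% of 2L genes and 42.7% of 3R genes. Among X genes no longer than nullo the share was 59.2% (142 of 240), and among 3R genes no longer than bnk it was 64.7% (388 of 600). Among 2L genes no shorter than slam it was 37.6% (235 of 625).

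To set the 5 genes beside the rest of their pathways, 57 other genes in 6 lists were described, covering activation and maternal clearance, the cell cycle at the mid-blastula transition, early zygotic and cytoskeletal genes of cellularisation, and apical constriction and mesoderm spreading at gastrulation. The 57 have a median length of 7.77 kb, against 2.15 kb over all protein-coding genes of the 5 arms, and the part of length in the counts below was not tested. Of the 57, 7 are on the X. H3K36me3 touched 46 of 57 (80.7%) at 11-12 h and 46 at 3-4 h, against 52.1% of all genes at 11-12 h and 51.2% at 3-4 h. Sonicated H4K16ac touched 17 (29.8%) at 11-12 h and 31 (54.4%) at 3-4 h, against 29.2% of all genes at 11-12 h and 37.1% at 3-4 h. MNase H4K16ac touched 11 (19.3%) at 11-12 h and 9 (15.8%) at 3-4 h, against 23.8% of all genes at 11-12 h and 17.0% at 3-4 h. MOF touched 6 (10.5%) at 11-12 h and 5 (8.77%) at 3-4 h, against 9.70% of all genes at 11-12 h and 8.03% at 3-4 h. Median H3K36me3 coverage of the 57 was 26.1% at 11-12 h and 23.2% at 3-4 h, against a median over all genes of 4.96% at 11-12 h and 2.61% at 3-4 h. Gene by gene the direction differed from that of the medians. H3K36me3 coverage was higher at 11-12 h in 15 of the 57 and lower in 33, against 17.7% of all genes higher and 21.1% lower.

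H3K36me3 at 3-4 h alone, as over zld and fog, was found at 3 of the 57 (5.26%), against 2.11% of all genes. These were opa, a zinc finger activator of segmentation genes (0% at 11-12 h and 9.70% at 3-4 h), stumps, an adaptor of FGF signalling in the mesoderm (0% at 11-12 h and 9.21% at 3-4 h), and Z600, the mitosis inhibitor Fruhstart (0% at 11-12 h and 1.55% at 3-4 h), whose span overlaps 2 other genes. Z600 is 0.453 kb long and the regions of that list are at least 1000 bp wide, so a region only reached its edge. Another 3 (5.26%) had H3K36me3 at 11-12 h alone, against 2.99% of all genes. They were Abl, a tyrosine kinase that acts on actin (20.7% at 11-12 h and 0% at 3-4 h), png, a kinase of egg activation (14.5% at 11-12 h and 0% at 3-4 h), and twe, a Cdc25 phosphatase (11.3% at 11-12 h and 0% at 3-4 h), whose span overlaps 1 other gene. The genes png and twe are 1.11 and 2.46 kb long, and H3K36me3 regions at 11-12 h are also at least 1000 bp wide. There too, regions only reached in from outside the gene.

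Sonicated H4K16ac was listed at 3-4 h alone for 15 of the 57 (26.3%), against 11.4% of all genes, and at 11-12 h alone for 1 (1.75%), against 3.47%. All 15 are autosomal, as are 50 of the 57. Such genes are rare on the X in general, where 1289 of the 1301 genes touched at 3-4 h were touched at both stages. The highest early coverage among them was in plu, a partner of png (0% at 11-12 h and 100% at 3-4 h), me31B, a repressor of maternal mRNA (0% at 11-12 h and 50.1% at 3-4 h), Myt1, an inhibitory kinase of Cdk1 (0% at 11-12 h and 47.3% at 3-4 h), and CycB, a mitotic cyclin (0% at 11-12 h and 44.3% at 3-4 h). Since plu is 0.727 kb long and the regions of that list are at least 1000 bp wide, 1 region can cover all of it. The gene with sonicated H4K16ac at 11-12 h alone was pnut, a septin (56.3% at 11-12 h and 0% at 3-4 h).

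MNase H4K16ac was listed at 11-12 h alone for 3 of the 57 (5.26%), against 9.49% of all genes, and at 3-4 h alone for 1 (1.75%), against 2.69%. The first 3 were mthl1, the X-linked gene of the Fog receptor Mist (92.6% at 11-12 h and 0% at 3-4 h), pnut (34.1% at 11-12 h and 0% at 3-4 h), and cta, a G protein subunit that acts downstream of Fog (14.3% at 11-12 h and 0% at 3-4 h). Of the 9 genes of apical constriction other than fog, mthl1 and cta were the 2 with MNase H4K16ac, and the other 7, among them smog, RhoGEF2, Gprk2 and T48, were at 0% for it at both stages. Sonicated H4K16ac was listed at both stages over mthl1 (10.7% at 11-12 h and 2.15% at 3-4 h) and over cta (13.0% at 11-12 h and 13.1% at 3-4 h). H3K36me3 was not listed over mthl1 at either stage, and it covered cta to 7.97% at 11-12 h and 7.61% at 3-4 h.

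**Figure D5:**
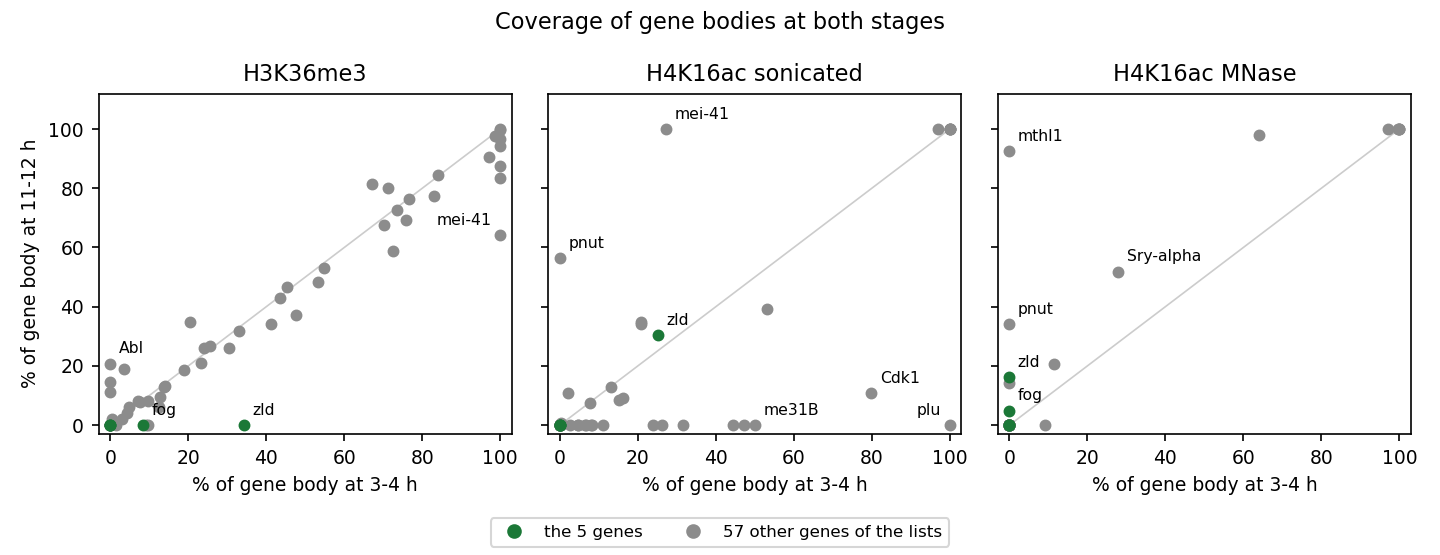
Percent of the gene body covered at 11-12 h (y axis) against 3-4 h (x axis) for H3K36me3, sonicated H4K16ac and MNase H4K16ac, with the 5 genes in green and the 57 other genes of the lists in grey; the line marks equal coverage. In the H3K36me3 panel, zld lies at 0% on the y axis and 34.4% on the x axis and mei-41, a checkpoint kinase gene, at 64.2% on the y axis and 100% on the x axis, while most of the other points lie nearer the line.

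The early zygotic genes of cellularisation did not all look alike. The gene halo, which acts on the transport of lipid droplets, was at 0% in every list, as were nullo, bnk and slam. Sry-alpha, whose product acts on actin at the furrow, was covered by H3K36me3 to 96.8% at 11-12 h and 100% at 3-4 h, but the gene table gives it the same span as Sry-beta, so these genes cannot be told apart. Of the 17 cytoskeletal and membrane genes of cellularisation, H3K36me3 touched 16 (94.1%) at 11-12 h and 15 (88.2%) at 3-4 h, against 52.1% of all genes at 11-12 h and 51.2% at 3-4 h. Among them, the X-linked lva, which codes for a Golgi protein, was covered to 100% at both stages. The X-linked dah, which codes for a furrow membrane protein, was covered to 87.6% at 11-12 h and 100% at 3-4 h, and its span overlaps 1 other gene. MOF covered both lva and dah to 100% at both stages, while it was not listed over zld, fog or nullo, nor over the X-linked mthl1. Of the 7 other X genes of the lists, MOF touched 6 (85.7%) at 11-12 h and 5 (71.4%) at 3-4 h. Over all X genes the shares were 54.7% at 11-12 h and 48.5% at 3-4 h.

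Of the 9 genes of apical constriction other than fog, H3K36me3 touched 6 (66.7%) at each stage, against the same 52.1% of all genes at 11-12 h and 51.2% at 3-4 h, with median coverage of 4.13% at 11-12 h and 4.22% at 3-4 h. The mesoderm regulators twi and sna, and the FGF pathway genes htl, pyr and ths, were at 0% in every list. Such genes were common, at 46.9% on 2L, the arm of sna, and 42.7% on 3R, the arm of htl. The share is not given for 2R, the arm of the other 3. Of the 5 genes of mesoderm spreading, H3K36me3 touched 1 (pbl) at 11-12 h and 2 (pbl and stumps) at 3-4 h. It covered pbl to 34.1% at 11-12 h and 41.1% at 3-4 h. Sonicated H4K16ac covered pbl to 0% at 11-12 h and 8.07% at 3-4 h.

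As a check of stage, 12 neural, glial and muscle genes were looked at. H3K36me3 touched 6 of them (50.0%) at 11-12 h and 5 (41.7%) at 3-4 h, against 52.1% of all genes at 11-12 h and 51.2% at 3-4 h. MNase H4K16ac touched 4 (33.3%) at 11-12 h and 2 (16.7%) at 3-4 h, against 23.8% of all genes at 11-12 h and 17.0% at 3-4 h. These shares are near the backgrounds and do not mark the stage. H3K36me3 coverage was higher at 11-12 h in 2 of the 12 and lower in 4, against 17.7% of all genes higher and 21.1% lower. The X-linked neuronal gene fne was covered by MNase H4K16ac to 52.9% at 11-12 h and 1.84% at 3-4 h, and elav to 96.8% at 11-12 h and 49.3% at 3-4 h, while the median over all X genes was 100% at 11-12 h and 39.9% at 3-4 h. H3K36me3 covered elav to 37.1% at 11-12 h and 47.3% at 3-4 h. The muscle gene sls was the 1 with H3K36me3 at 11-12 h alone (10.5% at 11-12 h and 0% at 3-4 h). Tm1, repo, Mef2 and nSyb had H3K36me3 at both stages, as did elav. The X-linked futsch had none, and MNase H4K16ac covered it to 10.6% at 11-12 h and 0% at 3-4 h. The muscle genes Mhc and Mlc2 and the neuronal genes brp and Syt1 were at 0% in every list.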

How the data were processed

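The authors deposited 12 region lists (chromosome, start and end, with no score). Per the submitters' processing notes, the build is dm6 and the tools named are HOMER, SAMtools and Bowtie2 (version 2.2.9), with no roles. How regions were called, and how replicates and inputs entered, is not given in the sources used here. Per the labels, each list stands for every replicate of its group. Starts were turned to count from 1, regions of a list were merged, and covered bases, nearest regions and neighbours were computed for all protein-coding genes of 5 arms in RefSeq's table (Release 6, the assembly of dm6). No test was made, since no group has a value per replicate. The X was taken to end at its last gene or region.

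The 5 genes and the wider lists were chosen with earlier results of these data known. The rule for named genes took the 5 genes, their neighbours, the 3 genes of the arm most like each, and up to 8 genes per wider list by the largest change of H3K36me3 or sonicated H4K16ac coverage. Outside that rule, halo, twi, sna, htl, pyr, ths, Z600, lva, Mhc, Mlc2, brp, Syt1, Sxl and CG2865 were picked once their values were known. In the lists, 3 symbols were matched by another symbol, and 1 gene lies outside the 5 arms and was not used. A planned motif search in promoters was not run, since no sequence was used here. On simulated regions, covered bases and distances equalled a direct count in 20 of 20 runs. Software was Python 3.11.15 with pandas 2.3.3 and numpy 2.4.6, with scipy 1.17.1 for binomial intervals and matplotlib 3.10.9 for figures.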

Additional observations from a re-analysis of the deposited data

How the results depend on the processing

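Joining regions within 1 kb, or adding 1 kb to both gene ends, changed none of the 12 counts of the 5 genes touched. In the widest 50% of each list, H3K36me3 at 3-4 h touched 1 of the 5 genes (zld), sonicated H4K16ac at 3-4 h touched 0 and MNase H4K16ac at 11-12 h touched 0, so both histone mark regions over fog are in the narrower part of their lists. With at least 50% of the body required, 0 of the 5 genes were touched by H3K36me3 at 3-4 h, by sonicated H4K16ac at 11-12 h or at 3-4 h, by MNase H4K16ac at 11-12 h or by subnucleosomal MSL2 at 11-12 h. Of the 57 other genes, that minimum left 19 with H3K36me3 at 11-12 h and 20 at 3-4 h, and 7 with sonicated H4K16ac at 11-12 h and 9 at 3-4 h. The widest 50% left 13 with sonicated H4K16ac at 11-12 h and 16 at 3-4 h, against 17 and 31 in the full lists. Most of that difference between the stages thus rests on narrower regions. With 1 kb added to gene ends, 21 had MNase H4K16ac at 11-12 h and 14 at 3-4 h. The shares of all genes under these changed settings were not computed, so these counts of the 57 have no background. Among X genes of at least 1 kb, 11 of the 12 lists touched a share above the 95% binomial interval of the share of all X genes. The widest 50% of each list moved 17 of 44 distances, among them that of nullo to mononucleosomal MSL2, to 235525 bp at 11-12 h and 234815 bp at 3-4 h, and that of slam to MNase H4K16ac at 3-4 h, to 305132 bp. Measuring between midpoints moved 12 of 59 distances. The subnucleosomal lists have regions of 1 width, so no widest part was taken. No paired analysis was possible because each list pools its replicates, and for the same reason no replicate could be left out.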
